A study of Mus musculus with 18 samples.

Results

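The genes described here build cholesterol and fatty acids: 31 mouse genes of the mevalonate pathway, of sterol synthesis from squalene, of fatty acid synthesis and desaturation, and of their control. They were chosen by name for their place in these pathways, but with earlier results of these data known. The shares of these genes called below are therefore not independent of these data. Every transcript entry that carried exactly 1 of these names was taken. Of the 31 genes, 14 have at least 1 row in the authors' deposited table between the groups used here, out of 5390 named genes with a row. These 14 genes gave 57 rows from 16 transcript entries, 47 of them lower and 10 higher in the group with interferon-gamma or with the added treatment. Each of the 57 rows involves a group that received interferon-gamma.

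The RNA was poly(A)-selected, and all 6 groups of 3 samples were grown from RAW264.7, a macrophage-like mouse line. In 4 groups the cells held the construct p2080, a lentivirus that makes murine CITED1, a co-regulator of transcription, when doxycycline is given. These construct cells were given doxycycline at 100 ng/mL with interferon-gamma at 200 U/mL, interferon-gamma alone, doxycycline alone, or neither. The other 2 groups were parental cells (RAW) with doxycycline at 100 ng/mL or untreated. No parental group received interferon-gamma, so in stimulated cells an effect of the inducer and one of CITED1 cannot be told apart. The labels do not say whether the construct cells were 1 clone, how long the treatments lasted, or whether samples of a group were separate cultures.

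The values come from a table of pairwise group comparisons made with Cuffdiff. A row gives the fold between 2 groups, its direction, 1 FPKM total (fragments per kilobase of transcript, scaled to the mapped fragments of the library, hence a level per length) and a q-value. Rows were listed only at 2-fold or more with q of 0.05 or less, so "called", "rose" and "fell" below mean that a row exists, and a gene without a row is not shown to be unchanged. The level in each group was rebuilt from the fold and the total. There are no values per sample, so no SD can be attached to a level, the depth is unknown, and the q-values cover only the spread between samples that may be technical replicates. In a bulk sample fewer cells of a kind and less RNA per cell cannot be told apart. The transcript of the induced gene, Cited1, was at 86.7 rebuilt FPKM with both treatments, 11.5 with interferon-gamma alone, 168 with doxycycline alone and 0.703 in untreated construct cells. Its level therefore also differed between interferon-gamma and no treatment without the inducer, and its part in the results was not tested. Of the 9 macrophage markers checked, 4 are listed. Within construct cells Cx3cr1 and Fcgr1 were called for interferon-gamma with and without doxycycline. Adgre1 and Itgam were called there only for the group with both treatments. Cx3cr1 was at 2.03 rebuilt FPKM with both treatments, 3.60 with interferon-gamma alone, 101 with doxycycline alone and 131 in untreated construct cells. Fcgr1, an Fc receptor, was at 274, 87.5, 15.5 and 14.1 rebuilt FPKM in the same groups, and Adgre1 at 5.03, 7.10, 13.9 and 12.2. Itgam was at 20.0 rebuilt FPKM with both treatments, 44.0 with doxycycline alone and 42.4 untreated. Adgre1 was also 2.34-fold lower in untreated construct cells than in untreated parental cells, at 28.6 rebuilt FPKM, in the authors' deposited table. The part of these differences in the results was not tested. Of 17 markers of fibroblasts, T cells, B cells, epithelium and adipocytes, 0 are listed.

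Cholesterol is made from acetyl-CoA by way of mevalonate, isoprenoid diphosphates, squalene and lanosterol, and fatty acids are made from the same acetyl-CoA by carboxylation, chain building, elongation and desaturation. Both routes are controlled by the SREBP transcription factors, which are held in the endoplasmic reticulum by INSIG proteins and the escort protein SCAP when sterols are plentiful and are cut free by membrane proteases when sterols run low. In macrophages these pathways supply membranes and the oxysterols and isoprenoids that feed back on immune signalling.

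The promoters of 3 genes that fell in each comparison of an interferon-gamma group with its unstimulated construct control are given here, to set the regulatory sequence beside the response. Capitals mark CCAAT, the letters bound by the SREBP partner NF-Y, and GGGCGG, those bound by Sp1, on either strand. Each window runs from 250 bases before the RefSeq start of the gene to the first 50 bases from it (RefSeq, GRCm38.p6), 5′ to 3′ on the strand of the gene. They lie at chr11:120824498-120824797 on the minus strand for Fasn, chr17:12960676-12960975 on the minus strand for Acat2 and chr3:129532136-129532435 on the plus strand for Elovl6.
Fasn: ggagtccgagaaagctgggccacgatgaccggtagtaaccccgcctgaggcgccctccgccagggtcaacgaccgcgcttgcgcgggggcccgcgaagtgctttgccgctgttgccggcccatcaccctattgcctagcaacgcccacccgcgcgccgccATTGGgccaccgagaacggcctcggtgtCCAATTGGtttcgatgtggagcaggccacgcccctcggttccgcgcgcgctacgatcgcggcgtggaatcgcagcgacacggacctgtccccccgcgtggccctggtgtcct
Acat2: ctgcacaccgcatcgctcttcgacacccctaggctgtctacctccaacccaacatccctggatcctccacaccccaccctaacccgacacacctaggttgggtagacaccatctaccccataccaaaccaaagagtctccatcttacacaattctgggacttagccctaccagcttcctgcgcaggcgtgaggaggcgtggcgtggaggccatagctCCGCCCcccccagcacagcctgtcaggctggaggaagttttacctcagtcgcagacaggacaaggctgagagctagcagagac
Elovl6: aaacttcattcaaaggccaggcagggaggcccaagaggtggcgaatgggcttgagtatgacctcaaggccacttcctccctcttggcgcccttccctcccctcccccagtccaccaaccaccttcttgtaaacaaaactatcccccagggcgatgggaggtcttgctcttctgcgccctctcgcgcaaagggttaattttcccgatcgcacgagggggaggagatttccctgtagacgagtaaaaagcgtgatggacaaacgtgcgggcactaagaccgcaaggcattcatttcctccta
Fasn held 3 NF-Y matches, whose first letters stand 90, 62 and 59 bases before the start, and the last 2 overlap. Acat2 held 1 Sp1 match, 33 bases before the start, and Elovl6 held neither motif. The RefSeq start is the first base of the deposited Elovl6 entry, lies 22 bases from that of the Acat2 entry and 452 bases from that of the Fasn entry. The nearest RefSeq start of Pmvk, the gene that went the other way, lies 453 bases from that of its entry, and its window is not printed.

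RefSeq windows were found for 24 of the 31 genes, 12 of them listed, and some genes have more than 1 window. CCAAT stood in 20 of the 29 windows of these genes and in 37.4% of all 32851 windows. It was in 7 of the 15 windows of listed genes and in 13 of the 14 windows of genes without a row. GGGCGG stood in 8 of the 15 and 13 of the 14 windows, against 35.7% of all windows, and the E-box CACGTG in 2 of each, against 7.15%. The letters TTCNNNGAA, to which STAT factors bind, were in 0 of the 15 windows of listed genes and 1 of the 14 of the others, against 8.30% of all windows. Both strands were searched, and a match is a description of the letters, not of a bound site.

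Interferon-gamma without doxycycline was followed in construct cells by lower levels of the first mevalonate enzyme, of fatty acid synthase and of an elongase, and by a higher level of phosphomevalonate kinase. Acat2, Fasn, Elovl6 and a retained-intron entry of Lss fell, and Pmvk and the shorter of the listed Lpin1 entries rose. Of the 14 listed genes 28.6% were called lower, against 24.3% of all listed genes, and 14.3% higher, against 25.7%. The share that fell is near the background, so the count itself sets these genes little apart.

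Acat2, the cytosolic thiolase that joins acetyl-CoA for the mevalonate pathway, had 11.1 rebuilt FPKM with interferon-gamma and 36.4 without. It fell 3.29-fold in the authors' deposited table (q of 3.9e-04, the smallest the table holds, as in 49 of the 57 rows). The GENCODE M21 transcript, at chromosome 17, 12942890 to 12960747 on the minus strand of GRCm38, shares 65.6% of its length at 95% identity or more with Acat3, a close copy of the gene that has no row, so reads may have been split between them. Fasn, fatty acid synthase, had 16.5 rebuilt FPKM with interferon-gamma and 44.5 without, a 2.7-fold fall in the authors' deposited table. Its entry spans chromosome 11, 120807105 to 120824095 on the minus strand. Another Fasn entry (ENSMUST00000055655) is paired there with an assembled locus name and lies outside the rule. It had 7.23 rebuilt FPKM with interferon-gamma and 21.4 without, a 2.96-fold fall in the authors' deposited table. Elovl6, which lengthens palmitate to stearate, had 3.26 rebuilt FPKM with interferon-gamma and 9.75 without, a 2.99-fold fall in the authors' deposited table. Its entry spans chromosome 3, 129532386 to 129638495 on the plus strand.

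Acaca, the acetyl-CoA carboxylase that commits carbon to fatty acids, has no row in that comparison. Its levels, rebuilt from other comparisons, were 7.67 FPKM with interferon-gamma and 14.1 without. That is a ratio of 0.543, just short of the 2-fold limit. Gm5182, a copy, matches 64.3% of its transcript at 95% identity or more. The entry of Lss, lanosterol synthase, is a transcript with a retained intron in GENCODE M21. It had 0.594 rebuilt FPKM with interferon-gamma and 2.40 without, a 4.03-fold fall in the authors' deposited table with q of 0.037, and no other Lss entry has a row. A gene on the opposite strand, 4930483K19Rik, overlaps 5.45% of its exonic length, and whether reads were counted by strand is not given.

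Pmvk, the kinase that makes mevalonate diphosphate, had 72.3 rebuilt FPKM with interferon-gamma and 27.2 without, and rose 2.66-fold in the authors' deposited table. It was the 1 mevalonate enzyme called higher, among the 4 of 7 that are listed. Its entry spans chromosome 3, 89459118 to 89469013 on the plus strand, no exon of another gene overlaps it in GENCODE M21 and no other transcript matched it at 95% identity over 100 bases or more. Lpin1, a phosphatidate phosphatase that makes diacylglycerol and also acts as a nuclear co-regulator, rose by its shorter entry (ENSMUST00000221230). That entry had 4.02 rebuilt FPKM with interferon-gamma and 1.55 without, a 2.59-fold rise in the authors' deposited table with q of 0.00485. The longer Lpin1 entry (ENSMUST00000067124) had 8.13 rebuilt FPKM with interferon-gamma and has no row in this comparison. The rise therefore rests on the less abundant entry.

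**Figure D1:**
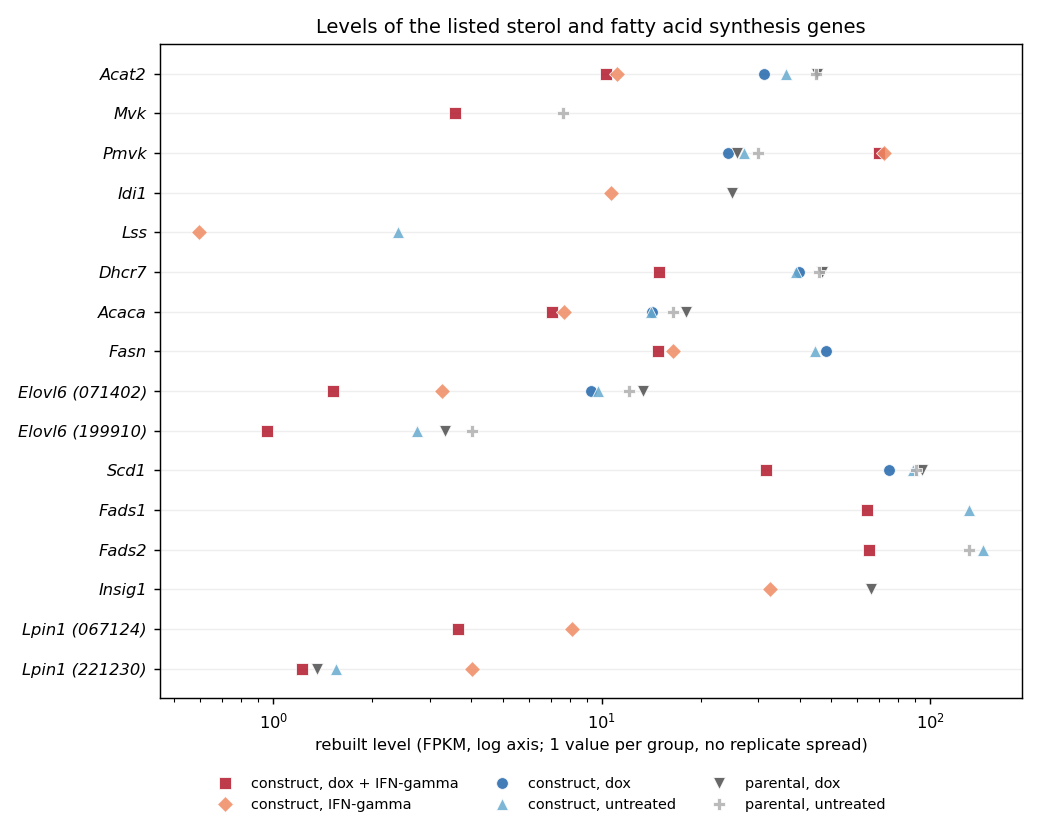
Rebuilt level (FPKM, log axis) of each listed entry, 1 point per group, with groups by colour and shape; a missing point is a level that no row gives, and the last 6 digits of the entry tell entries of 1 gene apart. For Acat2, Acaca and the main Elovl6 entry the 2 interferon-gamma groups lie below the 4 unstimulated groups, and for Pmvk at 69.6 and 72.3 they lie above all 4.

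With doxycycline present, interferon-gamma was again followed by lower levels in construct cells, and more genes passed the limit. Acaca, Acat2, Dhcr7, Elovl6, Fasn and Scd1 fell, and Pmvk rose. This made 42.9% of the 14 listed genes lower, against 33.9% of all listed genes, and 7.14% higher, against 33.7%. The background of lower calls was 24.3% without doxycycline, so it grew as well. The longer list of falls therefore sets these genes little apart. Of the 6 listed genes of fatty acid synthesis and desaturation 4 fell and 0 rose. Of the 4 listed mevalonate genes 1 fell and 1 rose, and of the 2 listed from squalene to cholesterol 1 fell. The set holds 8, 7 and 11 genes of these kinds, and those without a row could not be counted. The listed genes of each kind are too few for their shares to be compared.

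Elovl6 showed the largest fold of these genes, at 1.52 rebuilt FPKM with both treatments and 9.26 with doxycycline alone, a 6.09-fold fall in the authors' deposited table. Fasn had 14.8 rebuilt FPKM with both treatments and 48.3 with doxycycline alone, a 3.26-fold fall in the authors' deposited table. Acat2 had 10.3 rebuilt FPKM with both and 31.2 with doxycycline alone, a 3.03-fold fall in the authors' deposited table. These are the genes that also fell without doxycycline.

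Dhcr7, the reductase of the last step to cholesterol, had 14.9 rebuilt FPKM with both treatments and 39.8 with doxycycline alone, a 2.67-fold fall in the authors' deposited table. Scd1, which puts the double bond into stearate and palmitate, had 31.6 rebuilt FPKM with both and 75.0 with doxycycline alone, a 2.38-fold fall in the authors' deposited table. Neither has a row for interferon-gamma alone, so their level in that group is not given. Acaca had 7.07 rebuilt FPKM with both and 14.2 with doxycycline alone, a 2.01-fold fall in the authors' deposited table. For Acaca the ratio was 0.498 with doxycycline and 0.543 without, so its call differs between the 2 comparisons and its ratios lie on either side of the 2-fold limit. Pmvk had 69.6 rebuilt FPKM with both and 24.3 with doxycycline alone, a 2.86-fold rise in the authors' deposited table. Whether the response to interferon-gamma differed with doxycycline was not tested for any gene.

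Set against untreated construct cells, both treatments together gave the longest list. Acaca, Acat2, Dhcr7, Elovl6, Fads1, Fads2, Fasn and Scd1 fell and Pmvk rose. That is 57.1% of the listed genes lower, against 34.1% of all listed genes, and 7.14% higher, against 33.9%. All 6 listed genes of fatty acid synthesis and desaturation are among those that fell, while Acly and Scd2 have no row. A gene is listed only if it was called in some pair, and Fads1 has a row in this comparison alone. That share was therefore partly fixed in advance, and nothing is concluded from it. This comparison shares its samples with those above and is not separate evidence. Fads2 and Fads1, the desaturases that make polyunsaturated fatty acids such as arachidonate, appear here at the highest levels among the listed genes. Fads2 had 65.2 rebuilt FPKM with both treatments and 145 untreated, a 2.22-fold fall in the authors' deposited table. Fads1 had 64.4 rebuilt FPKM with both and 131 untreated, a 2.04-fold fall in the authors' deposited table. A shorter Elovl6 entry (ENSMUST00000199910) had 0.955 rebuilt FPKM with both and 2.74 untreated, a 2.87-fold fall in the authors' deposited table with q of 0.0357. The main Elovl6 entry fell 6.41-fold here in the authors' deposited table.

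**Figure D2:**
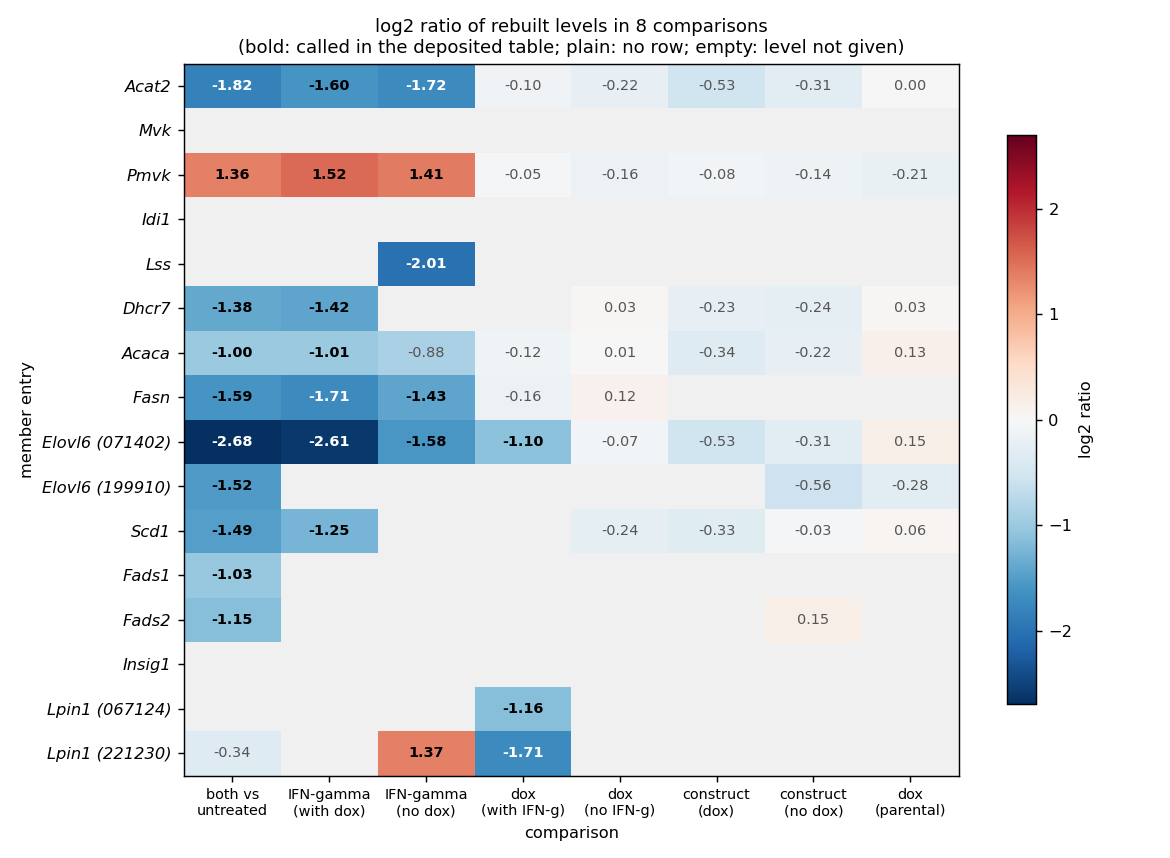
The log2 ratio of rebuilt levels (colour and number) for each listed entry and 8 comparisons, where bold numbers have a row in the deposited table, plain numbers come from levels of other rows and empty cells have no level. The 3 interferon-gamma columns on the left are blue apart from Pmvk and 1 Lpin1 entry, and the 4 columns on the right hold no bold number.

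In cells stimulated with interferon-gamma, doxycycline was followed by a fall of Elovl6 and Lpin1 and by no rise among these genes. The share called lower was 14.3% of the listed genes, against 6.38% of all listed genes, and 0 genes were called higher, against 6.85%. Elovl6 had 1.52 rebuilt FPKM with both treatments and 3.26 with interferon-gamma alone, a 2.15-fold fall in the authors' deposited table. The main Lpin1 entry (ENSMUST00000067124) had 3.64 rebuilt FPKM with both and 8.13 with interferon-gamma alone, a 2.23-fold fall in the authors' deposited table. The shorter Lpin1 entry had 1.22 rebuilt FPKM with both and 4.02 with interferon-gamma alone, a 3.28-fold fall in the authors' deposited table with q of 0.00395. For this entry the level with both treatments was close to the 1.55 rebuilt FPKM of untreated construct cells, and that pair has no row. The untreated level of the main entry is not given. Cited1 was at 86.7 rebuilt FPKM with both treatments and 11.5 with interferon-gamma alone.

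The other 4 genes with a level in both stimulated groups lay close together. The ratio of both treatments to interferon-gamma alone was 0.898 for Fasn, 0.921 for Acaca, 0.931 for Acat2 and 0.963 for Pmvk. Over the 6 genes with both levels the median log2 ratio was -0.14, and over the 4333 entries of the table with both levels it was 0.08. These 6 genes have levels because they were called in some comparison, and are not a sample of the 31.

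Without interferon-gamma no gene of the set was called. Doxycycline in construct cells gave 0 calls, against 0.204% of all listed genes lower and 0.204% higher, and in parental cells 0 calls, against 0.798% and 0.111%. Construct cells against parental cells gave 0 calls without doxycycline, against 2.80% lower and 1.74% higher, and 0 with it, against 3.19% and 2.41%. At these backgrounds few of 14 genes would be called, so 0 calls sets them little apart. The rebuilt levels show how close the groups lay. In construct cells the ratio of doxycycline to untreated was lowest for Scd1, at 0.845, and highest for Fasn, at 1.08. In parental cells it was lowest for the shorter Elovl6 entry, at 0.825, and highest for the main Elovl6 entry, at 1.11.

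Between the lines, construct cells were at or below parental cells for most genes with a level in both. With doxycycline in both lines the ratio of construct to parental cells was below 1 for all 6 genes with levels. It was lowest for Acat2, at 31.2 and 45.1 rebuilt FPKM or a ratio of 0.691, and for Elovl6, at 9.26 and 13.4 or 0.692. It was highest for Pmvk, at 0.943. Without doxycycline 6 of 7 genes had a ratio below 1, and Fads2 was at 145 rebuilt FPKM in construct cells and 131 in parental cells. None of these pairs has a row, and their replicate spread is unknown. A parental level is given only for genes called between an interferon-gamma group and that parental group. Most of those calls were falls, which a high parental level makes more likely. Fasn and Fads1 fell within construct cells but have no parental level. The genes compared here are therefore not a sample of the 31, and a difference between the lines was not tested.

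In comparisons that change the line and the treatment at once, 27 further rows stand, and another 4 compare interferon-gamma alone with doxycycline alone. Idi1, the isomerase that makes dimethylallyl diphosphate, and Insig1, the anchor that holds SREBPs back, have a row in none but interferon-gamma-treated construct cells against doxycycline-treated parental cells. Idi1 had 10.7 and 25.0 rebuilt FPKM in them, a 2.34-fold fall in the authors' deposited table. Insig1 had 32.6 and 66.2 rebuilt FPKM, a 2.03-fold fall in the authors' deposited table. The listed entry of Mvk, mevalonate kinase, had 3.57 rebuilt FPKM in construct cells with both treatments and 7.61 in untreated parental cells, a 2.13-fold fall in the authors' deposited table with q of 0.0468. For these 3 genes line and treatment cannot be told apart. Acat2, Elovl6 and Pmvk were called, each in 1 direction, in all 8 pairs of an interferon-gamma group with an unstimulated group of either line, pairs that share samples. In the authors' deposited table the fall of Acat2 ranged over them between 2.82-fold and 4.38-fold, that of Elovl6 between 2.84-fold and 8.8-fold, and the rise of Pmvk between 2.33-fold and 2.97-fold. Acaca, which had no row for interferon-gamma alone within construct cells, fell 2.15-fold in the authors' deposited table between those cells and untreated parental cells.

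**Figure D3:**
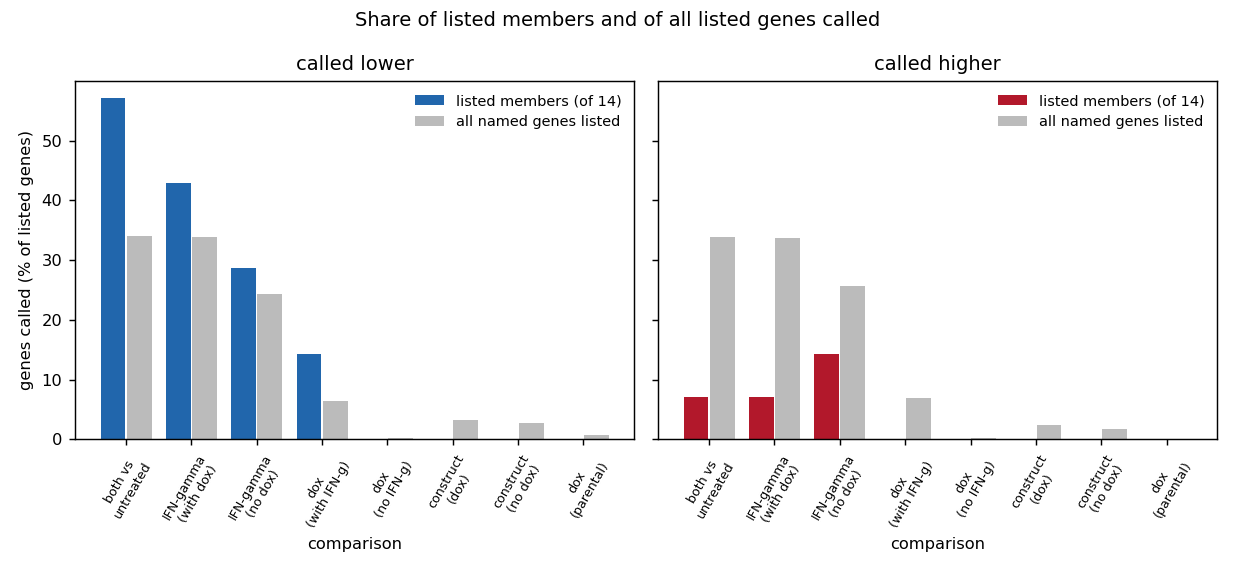
Percent of the 14 listed genes of the set (coloured) and of all 5390 listed named genes (grey) called lower (left panel) or higher (right panel) in 8 comparisons. The coloured bars for lower calls stand above the grey ones in the 4 comparisons with an interferon-gamma group, by the widest margin at 57.1% against 34.1%, and those for higher calls stand below them.

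For 17 of the 31 genes no row exists between these groups. These are Hmgcs1, Mvd and Fdps of the mevalonate pathway, and Fdft1, Sqle, Cyp51, Tm7sf2, Msmo1, Nsdhl, Hsd17b7, Ebp and Sc5d of the steps from squalene. Acly and Scd2 of fatty acid synthesis, Srebf1 and Srebf2, the genes of the SREBPs, and Stard4, a sterol carrier, are also without a row. Their levels are not given here. Most of the steps from squalene to cholesterol, 9 of 11, are therefore outside what the table shows.

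Of 26 other genes of sterol handling 12 are listed. With interferon-gamma in doxycycline-treated construct cells 4 rose and 5 fell. These are 33.3% and 41.7% of the 12, against 33.7% and 33.9% of all listed genes, so the counts are near the background. Insig2, a second SREBP anchor, had 11.7 rebuilt FPKM with both treatments and 2.30 with doxycycline alone, a 5.1-fold rise in the authors' deposited table. Stard3, a sterol transfer protein of late endosomes, rose 3.26-fold in the authors' deposited table, and Ggps1 and Nr1h2, the gene of the oxysterol receptor LXR-beta, rose too. Abca1, the exporter of cholesterol, had 0.364 rebuilt FPKM with both and 4.18 with doxycycline alone, an 11.5-fold fall in the authors' deposited table. Tmem97, Acat1, Cyp27a1 and Mbtps1, a protease that cuts SREBPs, also fell. With interferon-gamma alone 2 rose, Npc2 and Nr1h2, and 2 fell, Abca1 and Tmem97. That is 16.7% of the 12 each way, below the 25.7% higher and 24.3% lower of all listed genes.

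Of 38 genes that activate and assemble fatty acids 15 are listed, and with interferon-gamma in doxycycline-treated construct cells 5 rose and 5 fell. That is 33.3% each way, at the background. Acsl1, an acyl-CoA synthetase, had 69.3 rebuilt FPKM with both treatments and 12.4 with doxycycline alone, a 5.59-fold rise in the authors' deposited table. Lpin2, Agpat3, Acsl4 and Me1, which supplies NADPH, rose as well. Gpam, the first acyltransferase of glycerolipid synthesis, had 1.13 rebuilt FPKM with both and 4.39 with doxycycline alone, a 3.89-fold fall in the authors' deposited table. Elovl5, an elongase of polyunsaturated fatty acids, fell 2.32-fold there in the authors' deposited table, and Mid1ip1, an activator of acetyl-CoA carboxylase, Acsl3 and Fads6 fell too. With interferon-gamma alone 5 rose and 3 fell. That is 33.3% and 20.0% of the 15, against 25.7% and 24.3% of all listed genes, again near the background.

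**Figure D4:**
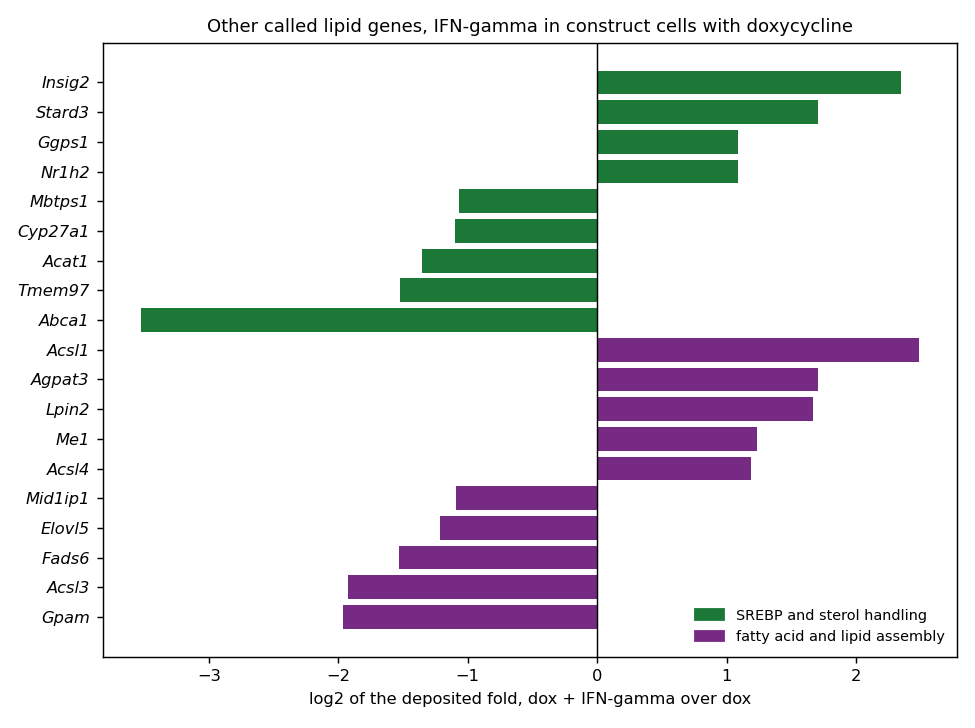
Log2 of the authors' deposited fold for the called genes of the 2 other lipid lists, doxycycline with interferon-gamma over doxycycline alone in construct cells, for the called entry with the highest total FPKM of each gene. The sterol handling list has 4 genes above 0 and 5 below, the fatty acid list 5 and 5, and Abca1 has the longest bar on the left.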

How the data were processed

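RNA of 18 samples in 6 groups was compared by the authors. Among the programs in the submitters' processing notes are Cuffdiff 2.2.1, edgeR, STAR 2.5.3a, FastQC 0.11.5 and featureCounts, with no roles; the build is not given in the sources used here, nor is the annotation. Per the file headers, the deposited rows hold a linear fold, a total FPKM of 2 groups and a q-value. Rows naming 2 groups outside the samples (77406 of 112230) were not used. The total was read as a sum: the lower level is the total divided by 1 plus the fold. Levels from several rows were averaged by the median; for the 30 such levels of these genes they differed by at most 0.262%.

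The calls are the authors' at q of 0.05 or less; the test on values per sample that had been planned could not be made. A gene counts once per comparison. Shares use genes with a row as denominator, since how many were tested is not given. All 31 genes are named, with values where a row exists. Overlaps and near-identical copies were looked up in GENCODE M21 (BLAST, 95% identity, 100 bases). Rebuilding was checked on simulated data written with the total as a sum, so that check could not test this reading of the total. Members and lists were chosen with earlier results of these data known. Of the sterol handling list, 2 genes are not reported here. Python 3.11.15 and pandas 2.3.3 were used.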

Additional observations from a re-analysis of the deposited data

How the results depend on the processing

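Counts were repeated at a q of 0.01 or less, with a pseudocount of 1 FPKM and at least 1.5-fold, and by entries. Over 8 comparisons the counts of genes called lower kept within 1.5 times their value under these settings. So did the counts called higher, but a count of 0 could not rise under these settings. A minimum of 1 FPKM could not change any count, as the smallest summed FPKM of a row of these genes was 2.99. The second Fasn entry (chosen after the data were examined) could not either, because Fasn was already counted wherever that entry has a row. Rescaling to a median log2 ratio of 0 was void for interferon-gamma. The 2-fold filter left 14.9% of entries within 2-fold without doxycycline, 4.31% with it and 4.20% for both treatments against none. The median lay inside that sparse range in the first (0.65) and at its edge in the others (1.02 and 1.02). The number higher under this rescaling was 0 in place of 2, 0 in place of 1 and 0 in place of 1. The filter sets these numbers, and nothing is read from them. With a pseudocount of 1 FPKM 6 of 26 log2 changes came under 2-fold, among them Elovl6 (-0.76) and the main Lpin1 entry (-0.97) for doxycycline in stimulated cells. No paired analysis was possible because the deposited table holds no values per sample, and for the same reason leaving out replicates was not run. The depth is unknown.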
